A study of Mus musculus with 8 samples.

Results

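The 9 genes described here are the amyloid precursor gene App, the genes of the enzymes that cut its protein (Bace1, Psen2, Ncstn, Psenen, Aph1a, Aph1b and Adam10), and Thy1. They were chosen by name, 9 of the 32285 genes in the count table of all nuclei, and their unique molecular identifiers (UMIs, counts of captured transcript molecules) were summed per library and cell class. Hemispheres of C57BL6/J mice aged 6 months, from which the cerebellum and the olfactory bulb had been cut away, were profiled by single-nucleus RNA-seq in WT, in Cnp-/-, in 5xFAD and in the cross Cnp-/-;5xFAD. The study describes replicates of its single-cell data in general as pools of 2 animals, but its account of the mice aged 6 months does not mention pooling. The 2 libraries of each of the 4 genotypes gave 61949 nuclei in all, and the question was what the amyloid transgenes and the loss of the myelin gene Cnp did to the transcripts of this pathway in each class.

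The amyloid precursor protein is cut in alternative ways. Cleavage by the β-secretase BACE1 followed by γ-secretase, a membrane complex of a presenilin, nicastrin, PEN-2 and an APH-1 protein, releases amyloid-β, whereas cleavage by the α-secretase ADAM10 cuts within the amyloid-β sequence. Thy1 encodes a cell surface glycoprotein of neurons, and its promoter drives the mutant human amyloid precursor and presenilin transgenes of 5xFAD mice in neurons, so that 5xFAD is a model of neuronal overproduction of amyloid-β. Cnp encodes a myelin protein, and mice without it have dysfunctional myelin and axonal swellings.

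Reads were aligned to the mouse genome alone, so the human transgenes have no counts of their own. Whether any of their transcripts were counted under mouse genes is not known. Whether the transgene transcript carries Thy1 sequence is not given in the sources used here. In mature oligodendrocytes Cnp was at 219 to 321 CPM (the UMIs of a gene when the profile is scaled to 1000000 UMIs) in the 4 libraries with the gene and at 23.1 to 32.8 CPM in the 4 Cnp-/- and Cnp-/-;5xFAD libraries, as the labels have it. Libraries held 68905044 to 82399061 UMIs and 6801 to 8824 nuclei, and 909 nuclei carried a barcode that also occurred in another library. The authors' classes were neurons (45141 nuclei), oligodendrocyte precursor cells (OPC, 1522), newly formed oligodendrocytes (NFOL, 465), mature oligodendrocytes (MOL, 5612), astrocytes (4810), microglia (2472), endothelial cells (1667) and pericytes (260). One pericyte profile had 19 nuclei, fewer than the 20 required, so that pericytes are described but not tested. NFOL were thin, with 22 to 104 nuclei per library.

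On GRCm38, App lies on chr16:84949685-85173766 on the minus strand and Bace1 on chr9:45838580-45864399 on the plus strand. Of the γ-secretase genes, Psen2 lies on chr1:180227004-180263438, Ncstn on chr1:172066013-172082795, Psenen on chr7:30561863-30563627 and Aph1b on chr9:66775202-66795490, all on the minus strand, and Aph1a on chr3:95893969-95898288 on the plus strand. Adam10 lies on chr9:70678997-70780229 and Thy1 on chr9:44043384-44048579, both on the plus strand. Every annotated gene that overlaps a member lies on the opposite strand. Counts are per gene, and exons and introns were not separated here.

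The substrate gene App was not mainly a neuronal transcript per unit of RNA. MOL had the highest level, 1396 ± 60.7 CPM (SD over 8 libraries), with single libraries between 1337 and 1530 CPM. Endothelial cells followed at 1114 ± 75.5 CPM, below every MOL library. Pericytes (433 ± 148 CPM, n = 7), NFOL (407 ± 147 CPM), neurons (395 ± 18.0 CPM), microglia (301 ± 84.3 CPM) and OPC (249 ± 78.0 CPM) overlapped from one to the next in the order. With every nucleus weighted equally (its counts scaled to 10000 UMIs) App in microglia was at 188 CPM, below OPC. A UMI of App was seen in 23.4% of microglial nuclei. Microglial profiles also held the mature oligodendrocyte marker Mbp, at 842 CPM against 5533 CPM in MOL. The part of oligodendrocyte transcripts in the microglial App level was not tested. Astrocytes stood apart at the bottom with 23.5 ± 11.0 CPM, 12.7 to 41.2 CPM in single libraries. A UMI of App was seen in 87.7% of MOL nuclei and 93.9% of endothelial nuclei, against 5.11% of astrocyte nuclei, with median depths of 1515, 3598 and 2636 UMIs per nucleus. Because neurons were most numerous and deepest (9105 UMIs per nucleus), they still held 89.2% of all App UMIs. Classes were clustered by the authors from these same counts, so all levels by class are descriptions with no test.

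Per unit of RNA the secretase genes were spread over glial and vascular classes. By this measure neurons were last or next to last of the 8 classes for 5 of the 7. Neurons still held most UMIs of each, from 82.5% for Psenen to 94.1% for Aph1b, with 88.4% for Bace1. Bace1, the β-secretase, was highest in MOL at 105 ± 19.7 CPM, overlapping NFOL at 70.5 ± 17.6 CPM, and lowest in neurons at 36.1 ± 2.23 CPM. Ncstn, which encodes nicastrin, was at 83.2 ± 16.7 CPM in microglia and at 31.0 ± 1.12 CPM in neurons, where all 8 libraries were below the lowest astrocyte library. Psenen, which encodes PEN-2, and Aph1a, one of the alternative APH-1 subunits, both led in endothelial cells, at 51.8 ± 9.62 and 62.6 ± 10.0 CPM, and were at 9.21 ± 2.45 and 19.1 ± 1.18 CPM in neurons. Psen2, a presenilin, showed no order at all. Its means ran from 11.0 CPM in pericytes to 21.2 CPM in microglia, and the libraries of each class overlapped those of its neighbour.

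Aph1b, the other APH-1 subunit measured, was close to absent from 1 class. Mature oligodendrocytes held 1 UMI in all 8 libraries, a mean of 0.0762 CPM, whereas OPC were at 18.2 ± 2.42 CPM, NFOL at 15.2 ± 10.6 CPM and neurons at 13.7 ± 1.75 CPM. Aph1b shares 18.4% of its 50-base transcript words with its copy Aph1c, and reads from the shared stretches could have been lost or split. In microglia the WT libraries were at 21.7 and 11.6 CPM, from 8 and 2 UMIs, and the other 6 libraries at 0 to 3.05 CPM, too few counts for a test. Adam10, the α-secretase, was at 295 ± 24.0 CPM in microglia, 280 ± 19.3 CPM in endothelial cells and 249 ± 25.2 CPM in MOL, with overlapping libraries, and at 95.3 ± 3.77 CPM in neurons. One astrocyte profile stood apart for Adam10: Cnp-/- replicate 2 was at 35.0 CPM, while the other 7 libraries were between 125 and 138 CPM. The transgene effect on Adam10 in astrocytes was 0.31 (-0.54 to 1.17, adjusted p = 0.981) and reached 0.97 (adjusted p = 0.0476) only without Cnp-/- replicate 1, which left replicate 2 as the sole Cnp-/- library.

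Thy1 was almost wholly neuronal by contrast, but it is among the genes by which the neuronal class was annotated, so that this is no finding. Neurons were at 33.5 ± 11.9 CPM and held 18762 Thy1 UMIs, 99.5% of all. Endothelial cells, the next class, were at 5.05 ± 4.70 CPM and did not overlap neurons. No UMI was found in OPC or microglia, where 3 UMIs would have been 0.615 and 0.655 CPM.

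**Figure D1:**
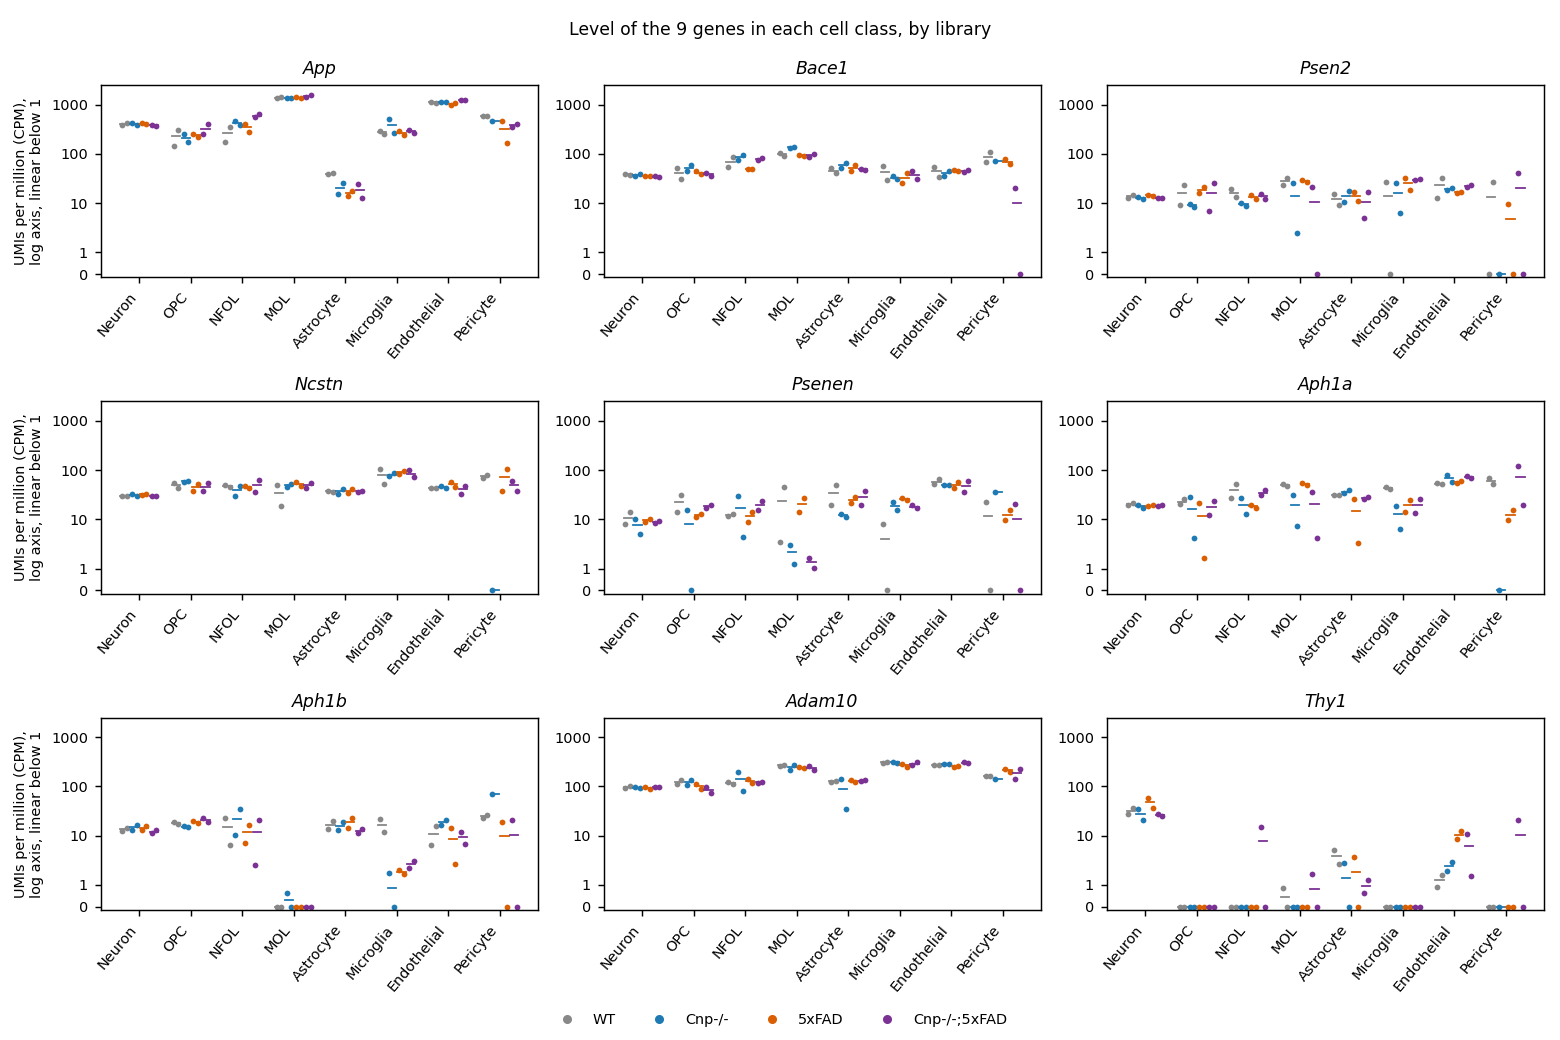
Level of each of the 9 genes (y axis, CPM, logarithmic above 1) in each cell class (x axis). Points are single libraries with at least 20 nuclei, colours are genotypes and short bars are means of a genotype. App was highest in MOL in all 8 libraries and lowest in astrocytes, Aph1b was nearly absent from MOL, and Thy1 was at 20.4 to 58.9 CPM in neurons.

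Over the 63 class-by-library profiles, the genes whose log2 level was most like that of App were Lrrc8b (Pearson r = 0.900), Myo1d (0.895), Dixdc1 (0.884), St6galnac3 (0.882) and Eml2 (0.860), out of 14225 genes compared. As with App, their means were higher in MOL than in neurons, endothelial cells and astrocytes, 665.6 CPM in MOL against 65.8 CPM in neurons for Myo1d. For Thy1 they were Car7 (0.895), Neurod6 (0.870), Kcng1 (0.869), Efcab6 (0.865) and Paqr9 (0.861), all with their highest of these 4 means in neurons. Profiles of 1 library share its depth, and profiles of 1 class share its cell type, so that these values describe the profiles only.

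The effect of the 5xFAD transgenes, the mean of 5xFAD minus WT and Cnp-/-;5xFAD minus Cnp-/-, was tested with edgeR's quasi-likelihood test in the 7 fitted classes. No member passed the adjusted threshold of 0.05 in any class, among 53 tests of a member in a class, with 4 at an unadjusted p under 0.05 and 0 in DESeq2. App, Bace1, Ncstn, Aph1a and Adam10 passed the filter on low counts in all 7 classes, Psen2 and Psenen in 6 (not NFOL), Aph1b in 4 (not NFOL, MOL or microglia) and Thy1 in 2 (neurons and endothelial cells). Over all genes tested the same contrast called 0% in neurons, OPC, MOL, astrocytes and endothelial cells, 0.0414% in NFOL and 0.249% in microglia. The 3 genes called in NFOL, Dync1i1, Zfp385b and Pbx3, are named after their values were seen. In neurons 0 of 21584 genes were called in edgeR, 2521 had an unadjusted p under 0.05 and DESeq2 called 501, none of them a member.

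In neurons, where the transgenes are driven, counts assigned to mouse App differed little between genotypes, which does not give the level of the human transgene. App was at 380.5 and 412.3 CPM in WT, 419.2 and 383.7 CPM in Cnp-/-, 412.8 and 397.0 CPM in 5xFAD and 382.8 and 371.2 CPM in Cnp-/-;5xFAD. Both Cnp-/-;5xFAD libraries were below those of Cnp-/- and of 5xFAD, and the other pairs of genotypes overlapped. The transgene effect was -0.01 on the log2 scale (95% interval -0.15 to 0.13, adjusted p = 0.972). The 7 secretase genes lay between -0.09 (Bace1, -0.24 to 0.07) and 0.06 (Psen2, -0.13 to 0.24) in neurons. Psenen had the widest interval of these, -0.56 to 0.63 around 0.04. The median over the 9 members was -0.01 and that over all 21584 genes was -0.000978.

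Thy1 over all neuronal nuclei was less even. It was at 27.9 and 36.7 CPM in WT, 35.6 and 20.4 CPM in Cnp-/-, 58.9 and 36.4 CPM in 5xFAD and 27.4 and 24.9 CPM in Cnp-/-;5xFAD. The single highest library was 5xFAD replicate 1, and the transgene effect was 0.25 (-0.29 to 0.79, adjusted p = 0.729). The effect of Cnp loss on Thy1 was -0.47 (-1.01 to 0.07, adjusted p = 0.661).

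Neuronal nuclei were therefore split by marker genes that include no member. Nuclei with at least 2 UMIs of the vesicular glutamate transporter Slc17a7 and none of Slc17a6, Gad1 or Gad2 were called Slc17a7 nuclei (15578), and those with at least 2 UMIs of Gad1 plus Gad2 (genes of the GABA-synthesising enzymes) and none of the glutamate transporters were called Gad nuclei (9175). Among Slc17a7 nuclei, Cux2 nuclei (6153) and Foxp2 nuclei (1187) had at least 2 UMIs of that gene and none of the others among Cux2, Fezf2, Foxp2 and Prox1, and Fezf2 nuclei (689, 60 to 122 per library) at least 1 UMI of Fezf2 and of Slc17a7, since 2 UMIs left 6 nuclei in 1 library. Cux2 is a marker of upper cortical layers, and Fezf2 and Foxp2 are markers of deep layers. The edgeR fits within gates and the comparisons with Cux2 nuclei were added after the values of the gates had been seen.

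In Fezf2 nuclei Thy1 was higher in every library that carried the transgenes. The level was 38.0 and 47.2 CPM in WT and 34.4 and 30.0 CPM in Cnp-/-. It was 130.5 and 119.4 CPM in 5xFAD and 77.0 and 61.7 CPM in Cnp-/-;5xFAD. The 4 transgenic libraries averaged 97.1 ± 33.0 CPM (SD, n = 4) and the other 4 averaged 37.4 ± 7.31 CPM (n = 4), with no overlap. Upward separation without overlap was found for 2.04% of the 9954 genes tested in these nuclei. Counts were small, 17 to 77 Thy1 UMIs in the libraries without the transgenes and 52 to 208 UMIs in those with them.

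The transgene effect on Thy1 in Fezf2 nuclei was 1.28 on the log2 scale (SE 0.160, 95% interval 0.94 to 1.61, edgeR adjusted p = 0.00112). Thy1 ranked first among the 9954 genes, of which 0.0201% were called. 5xFAD minus WT was 1.49 (adjusted p = 0.00184) and Cnp-/-;5xFAD minus Cnp-/- was 1.06 (adjusted p = 0.254), and the interaction, which tests whether they differ, was -0.43 (-1.11 to 0.25, adjusted p = 0.977). By the exact permutation test over 8 libraries the same difference had p = 0.0286, the smallest that 70 relabellings can give, and an adjusted p of 0.343 over the 18 tests of 9 gates at 1 UMI. In the 128 nuclei with at least 2 Fezf2 UMIs, too few to test, Thy1 was at 26.5 to 45.0 CPM without the transgenes and at 94.7 to 141.7 CPM with them.

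In Foxp2 nuclei, at 2 UMIs of the marker, Thy1 was at 23.8, 55.3, 39.3 and 16.4 CPM in the WT and Cnp-/- libraries and at 63.8, 63.7, 87.1 and 79.5 CPM in the 5xFAD and Cnp-/-;5xFAD libraries. The groups did not overlap, which held upward for 1.63% of the 11292 genes tested. At 1 UMI, the minimum used for Fezf2 nuclei, they overlapped, with WT replicate 2 at 52.2 CPM and 5xFAD replicate 2 at 52.0 CPM (exact permutation test, p = 0.0571, adjusted p = 0.343 over 18 tests). The transgene effect was 1.03 (0.41 to 1.64) and did not pass the adjusted threshold in edgeR (adjusted p = 0.711), nor in the permutation test (p = 0.0286, adjusted p = 0.286 over 10 tests of 5 gates). Leaving out each library in turn, which leaves 1 library in a genotype, gave effects of 0.83 to 1.47. The only gene called for the transgene effect in this gate was Hs6st3 (0.00886% of genes tested), at -0.77. Bace1 had an effect of -0.50 in Foxp2 nuclei (-0.88 to -0.11, adjusted p = 0.813).

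In Cux2 nuclei Thy1 was at 36.4 and 36.2 CPM in WT, 39.9 and 35.7 CPM in Cnp-/- and 43.2 and 31.4 CPM in 5xFAD, and at 13.0 and 7.19 CPM in Cnp-/-;5xFAD. The 2 Cnp-/-;5xFAD libraries were thus the lowest, whereas those of 5xFAD lay on both sides of WT. The transgene effect was -0.96 (-1.40 to -0.52, adjusted p = 0.674), the effect of Cnp loss was -0.90 (-1.35 to -0.46, adjusted p = 1.00) and the interaction was -1.92 (-2.81 to -1.03, unadjusted p = 0.00126, adjusted p = 0.237). edgeR called 0% of the 15451 genes in either the transgene effect or the interaction of this gate, with 900 and 1219 genes at an unadjusted p under 0.05 and 29 and 163 (1.05% for the interaction) in DESeq2, in which the interaction of Thy1 had an adjusted p of 8.96e-04. DESeq2 also called the effect of Cnp loss on Thy1 (-0.90, adjusted p = 0.0163) among 15 genes, 0.0971% of those tested, where edgeR called 0.0259%. Without Cnp-/-;5xFAD replicate 1, which left 1 library of that genotype, the interaction was -2.41. Cnp-/-;5xFAD minus Cnp-/- was -1.92 (adjusted p = 0.204) and 5xFAD minus WT was -0.0023 (-0.60 to 0.60). The gate held 524 to 1301 nuclei per library, with the highest number in Cnp-/-;5xFAD replicate 2.

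The difference between these gates was tested on the log2 ratio of Fezf2 to Cux2 nuclei within each library, both at 1 UMI. The Thy1 ratio was 0.06 and 0.35 in WT, -0.24 and -0.27 in Cnp-/-, 1.47 and 1.89 in 5xFAD and 2.49 and 2.76 in Cnp-/-;5xFAD. All 4 transgenic libraries were above the other 4, and the mean difference was 2.18 (exact two-sided permutation test, p = 0.0286, the smallest possible, adjusted over Thy1 and App 0.0571). The share of all genes whose ratio separates in this way was not computed, so how unusual the separation is cannot be said. The corresponding difference for Foxp2 against Cux2 nuclei at 2 UMIs was 2.15 (exact permutation test, p = 0.0571, adjusted p = 0.114), and no difference between gates passed the adjusted threshold. Adjusted over Thy1 and App, the smallest possible p of 0.0286 passes only if both genes reach it, so that a miss by Thy1 decides nothing. The difference between Slc17a7 and Gad nuclei was 1.08 for Thy1 (exact permutation test, p = 0.286) and -0.14 for App (p = 0.114, adjusted p = 0.229), so that neither was resolved.

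Within Slc17a7 nuclei as a whole Thy1 was at 35.7, 38.7, 40.0 and 30.8 CPM without the transgenes and at 65.0, 49.9, 33.7 and 25.7 CPM with them, the first 2 of these being 5xFAD and the last 2 Cnp-/-;5xFAD. The transgene effect there was 0.15 (adjusted p = 0.892) and the interaction was -0.85 (-1.54 to -0.17, adjusted p = 0.776). Gad nuclei were uneven even within a genotype, with Thy1 at 11.8 and 35.9 CPM in WT and at 29.7 and 3.21 CPM in Cnp-/-, and their transgene effect was -1.17 (-3.26 to 0.93). edgeR called 0% of genes for the transgene effect in either gate, with 1165 and 659 genes at an unadjusted p under 0.05 and 84 and 4 in DESeq2. Of the 10 permutation tests at 2 UMIs and the 18 at 1 UMI, 0 passed the adjusted threshold, which a smallest p of 0.0286 makes hard to reach.

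App did not share the pattern of Thy1. In Fezf2 nuclei App was at 345.6 to 456.1 CPM without the transgenes and at 382.1 to 459.1 CPM with them, and the effect was 0.03 (-0.20 to 0.25). In Cux2 nuclei its effect was -0.04 (-0.16 to 0.09) and in Foxp2 nuclei -0.14 (-0.31 to 0.04). The Fezf2 to Cux2 ratio of App differed by 0.09 (exact permutation test, p = 0.486).

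**Figure D2:**
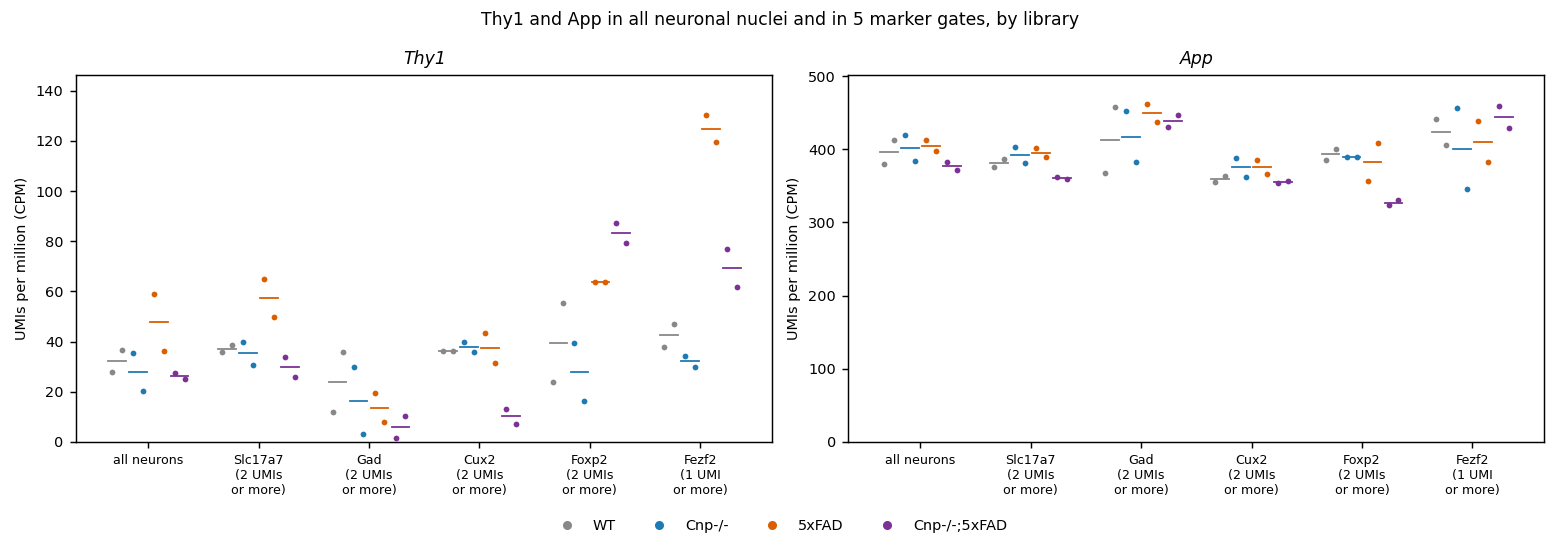
Level of Thy1 (left) and App (right) in all neuronal nuclei and in 5 groups of neuronal nuclei gated on marker UMIs (x axis), in CPM (y axis, from 0). Points are the 8 libraries, colours are genotypes and short bars are means of a genotype. Thy1 in Fezf2 nuclei was at 61.7 CPM or more in the 4 transgenic libraries and at 47.2 CPM or less in the other 4, while in Cux2 nuclei the 2 Cnp-/-;5xFAD libraries were lowest and App overlapped in both.

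Counted by nucleus, the transgenic libraries had more neuronal nuclei with several Thy1 UMIs. After thinning each nucleus to 5000 UMIs, 0.0133% and 0.114% of nuclei in WT and 0.146% and 0.0269% in Cnp-/- had at least 3 Thy1 UMIs. The shares were 0.918% and 0.462% in 5xFAD and 0.322% and 0.256% in Cnp-/-;5xFAD, above all 4 others, a separation found upward for 1.09% of 14447 genes. Before thinning they were 0.409% to 2.39% without the transgenes and 2.09% to 8.83% with them, which overlap. The share with at least 1 UMI after thinning did not separate the groups, at 11.3% to 18.6% without the transgenes and 10.3% to 24.6% with them. Before thinning, nuclei with 10 or more Thy1 UMIs numbered 0 in each library without the transgenes. They numbered 7 and 6 in the 5xFAD libraries and 1 and 1 in the Cnp-/-;5xFAD libraries. The median depth of neuronal nuclei ran from 6474 UMIs in Cnp-/- replicate 2 to 11309 UMIs in 5xFAD replicate 1. For what share of all genes such counts separate the groups was not computed. The thinned shares are expected values over the 4167 to 5327 neuronal nuclei of a library with at least 5000 UMIs. The unthinned shares are over all 4463 to 6838 neuronal nuclei of a library. The make-up of these nuclei differed between libraries. Gad nuclei numbered 2180 and 782 in WT, 1113 and 1858 in Cnp-/-, 611 and 1290 in 5xFAD and 814 and 527 in Cnp-/-;5xFAD. The part of this make-up in the shares was not tested. The thinning left out 296 to 2500 shallower nuclei per library, and OPC and microglia, which should lack Thy1, had 0% of nuclei with a UMI at median depths of 3036 and 1395 UMIs.

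Outside neurons Thy1 could be tested in endothelial cells, from very few counts. There were 1, 1, 2 and 4 Thy1 UMIs in the WT and Cnp-/- libraries and 9, 14, 10 and 2 UMIs in the 5xFAD and Cnp-/-;5xFAD libraries. The effect was 2.12 (0.37 to 3.88) with an unadjusted p of 0.0228 and an adjusted p of 0.928. Thy1 passed the filter on low counts there through 2 libraries with the transgenes and 0 without them, so that a positive effect was built into its being tested. The summed neuronal markers Snap25, Syt1 and Rbfox3, all detected in endothelial profiles, were at 511, 169, 306 and 452 CPM and at 755, 870, 174 and 263 CPM in the same libraries, and their part in this difference was not tested.

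The remaining members with an unadjusted p under 0.05 for the transgenes were in glia. App in astrocytes was at 38.1, 41.2, 15.0 and 26.1 CPM without the transgenes and at 13.7, 17.8, 23.8 and 12.7 CPM with them, an effect of -0.77 (-1.43 to -0.12, adjusted p = 0.981). The WT libraries were highest and the other 6 overlapped. Adam10 in OPC was at -0.38 (-0.73 to -0.03, adjusted p = 0.997), and App in NFOL at 0.45 (0.04 to 0.86, adjusted p = 0.791).

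Loss of Cnp, the mean of Cnp-/- minus WT and Cnp-/-;5xFAD minus 5xFAD, changed 1 member in 1 class among 53 tests: App rose in NFOL. DESeq2 also called 1, though another, Psenen in MOL, and 4 tests had an unadjusted p under 0.05 in edgeR. The same contrast called 2.14% of all genes tested in NFOL, 0.788% in MOL, 1.06% in microglia, 0.0681% in endothelial cells, 0.0185% in neurons and 0% in OPC and astrocytes. The 4 genes called in neurons were A830036E02Rik, Krt20, Adap1 and Krt12, named after their values were seen.

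App in NFOL was at 177.2 and 347.7 CPM in WT, 462.9 and 392.2 CPM in Cnp-/-, 410.6 and 276.4 CPM in 5xFAD and 559.2 and 633.0 CPM in Cnp-/-;5xFAD. The 4 libraries without Cnp were higher than the other 4 apart from 1 pair, Cnp-/- replicate 2 against 5xFAD replicate 1. The effect was 0.79 (SE 0.196, 95% interval 0.38 to 1.20, adjusted p = 0.0420). The call was close to the threshold and was lost in DESeq2 (adjusted p = 0.0517) and on leaving out any 1 library other than WT replicate 2 or 5xFAD replicate 1 (effect 0.55 to 0.84, adjusted p 0.0735 to 0.183 where it was lost). Neither Cnp-/- minus WT (0.73, adjusted p = 0.373) nor Cnp-/-;5xFAD minus 5xFAD (0.85, adjusted p = 0.382) passed by itself.

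Markers of mature oligodendrocytes also differed with Cnp loss in these profiles. The sum of Mbp and Mog, both detected in every NFOL profile, was at 601 and 1404 CPM in WT, 2588 and 2443 CPM in Cnp-/-, 1511 and 1206 CPM in 5xFAD and 2910 and 2181 CPM in Cnp-/-;5xFAD. All 4 libraries without Cnp were above all 4 with it, and the share of all genes that separate so was not computed. The libraries did not follow the order of App throughout. Within Cnp-/-;5xFAD, replicate 2 had the higher App and the lower marker sum. WT replicate 1, with the lowest App, also had the highest sum of the astrocyte markers Aqp4, Slc1a2 and Gfap, 2732 CPM against 950 to 2161 CPM in the others. The part of these markers in the App difference was not tested. In MOL themselves App differed little with Cnp loss, at 0.12 (-0.07 to 0.31, adjusted p = 0.654), as in neurons at 0.02 (-0.12 to 0.17) and endothelial cells at 0.14 (-0.01 to 0.29).

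**Figure D3:**
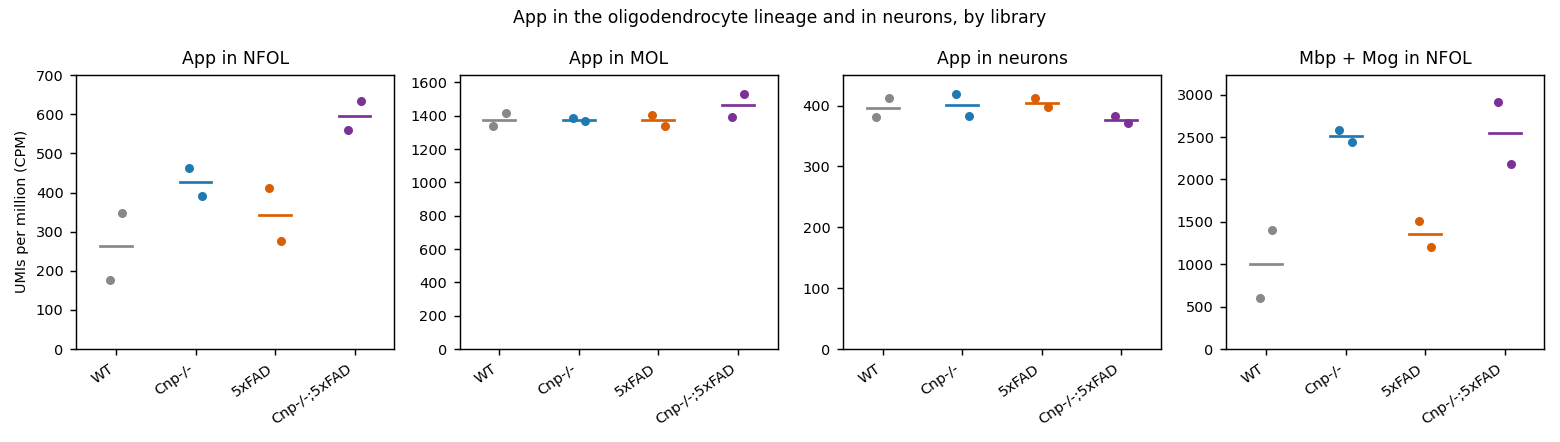
App in NFOL, MOL and neurons and the summed mature oligodendrocyte markers Mbp and Mog in NFOL (y axes, CPM, from 0) by genotype (x axis). Points are libraries and bars their mean. App and the marker sum in NFOL were both lowest in WT replicate 1 (177.2 and 601 CPM). Both were highest in Cnp-/-;5xFAD, App in replicate 2 and the marker sum in replicate 1. App in MOL stayed between 1337 and 1530 CPM.

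Bace1 had positive values in both oligodendrocyte classes without passing the test, 0.52 in NFOL (0.00 to 1.03, adjusted p = 0.382) and 0.31 in MOL (-0.02 to 0.65, adjusted p = 0.465). In MOL it was at 132 and 138 CPM in the Cnp-/- libraries and at 87.6 to 105 CPM in the other 6. Psenen in MOL was at 3.45 and 44.4 CPM in WT, 3.05 and 1.22 CPM in Cnp-/-, 14.4 and 26.9 CPM in 5xFAD and 1.65 and 1.03 CPM in Cnp-/-;5xFAD, from 1 to 42 UMIs. The 4 libraries without Cnp were below the other 4, though narrowly (3.05 CPM against 3.45 CPM at the nearest), and the share of all genes that separate so was not computed. The 2 WT libraries differed more than 10 times from each other. The gene passed the filter on low counts through 3 libraries with Cnp and 0 without it, so that a negative effect was built into its being tested. The fitted value was -3.52 (-5.76 to -1.27, adjusted p = 0.182), and DESeq2 called it (adjusted p = 0.00831) among 5.84% of genes.

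Replicate 2 of both genotypes without Cnp was low in MOL for Aph1a and Psen2, but not for Ncstn (51.2 and 54.4 CPM, against 19.0 to 56.1 CPM in the other 6 libraries). Aph1a was at 7.32 CPM in Cnp-/- replicate 2 and 4.10 CPM in Cnp-/-;5xFAD replicate 2, against 31.1 to 53.8 CPM in the other 6 libraries. Psen2 was at 2.44 and 0 CPM in the same profiles, against 20.7 to 31.7 CPM. The authors had removed ambient transcripts from these counts, so that a low value or a 0 is what that removal left, and its part in these values was not tested. The effect of Cnp loss was -1.26 for Aph1a (-2.76 to 0.23) and -1.13 for Psen2 (-3.44 to 1.18), neither past the test. Spread between libraries, as edgeR's biological coefficient of variation, was 0.466 in MOL and 0.207 in neurons. Aph1a in endothelial cells was at 0.34 (0.01 to 0.67, adjusted p = 0.624).

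**Figure D4:**
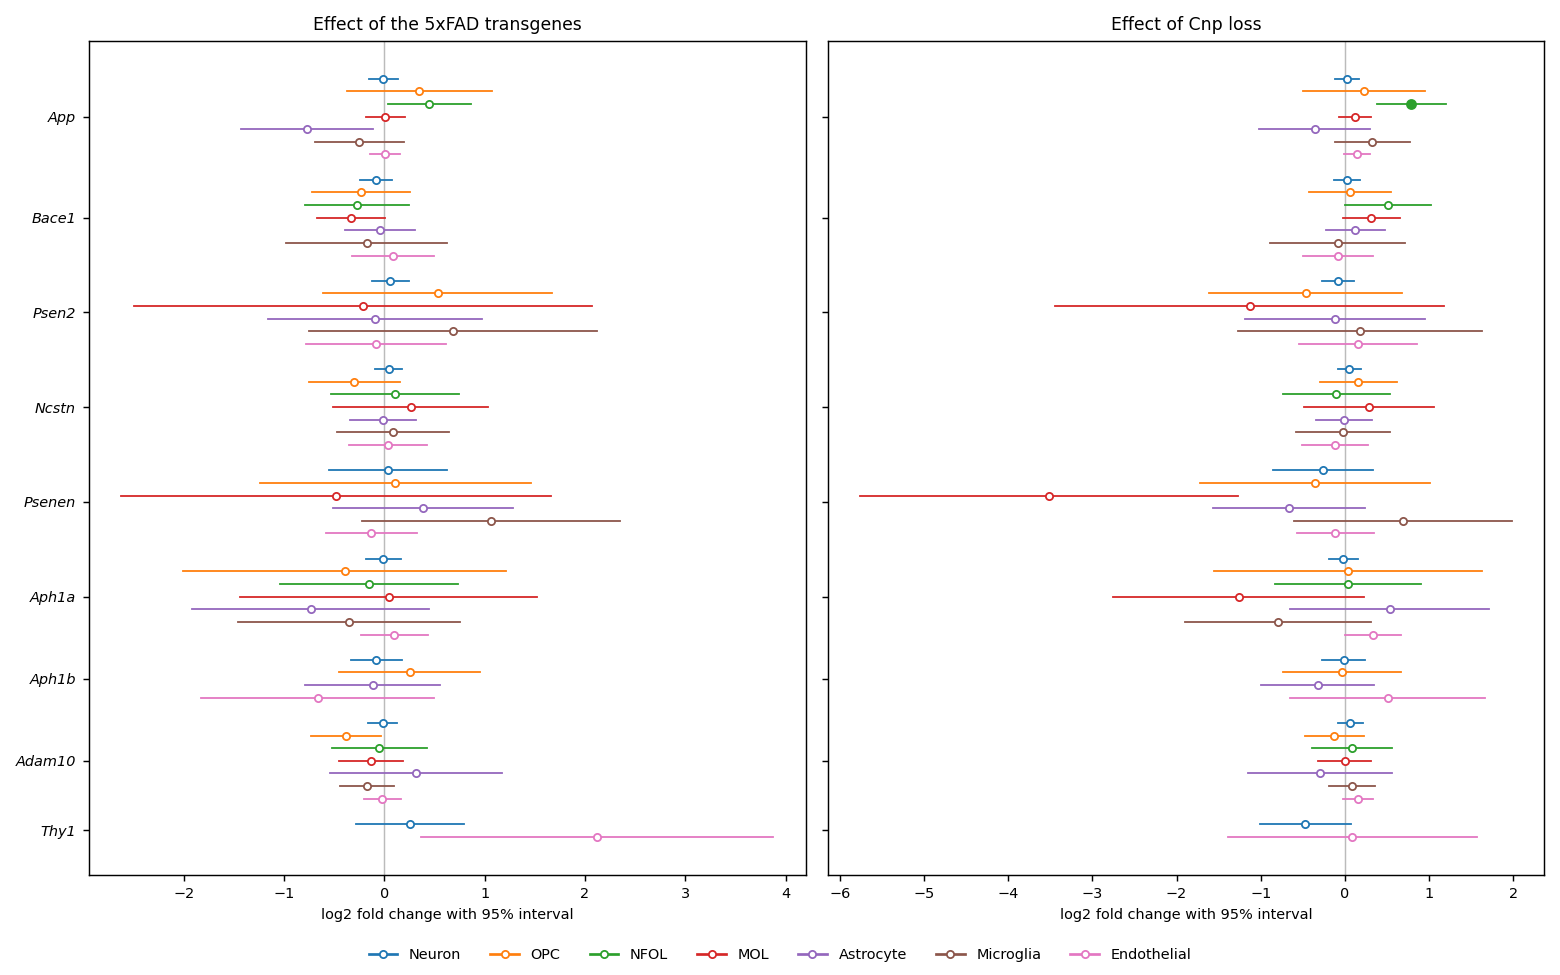
Fitted log2 fold change (x axis) with 95% interval of each member in each fitted class (y axis, colours) for the transgenes (left) and Cnp loss (right). Filled points pass an adjusted p of 0.05 and only App in NFOL under Cnp loss does, at 0.79. Intervals are narrow in neurons and wide in MOL for Psen2, Psenen and Aph1a.

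No member passed the test of the interaction of the transgenes with Cnp loss in any class, among 53 tests, with 1 at an unadjusted p under 0.05 and 0 in DESeq2. That 1 was Aph1a in NFOL, at 1.82 (0.05 to 3.58, adjusted p = 0.999) from 3 to 13 UMIs per library. Aph1a passed the filter on low counts there through 1 WT library (52.5 CPM) and 1 Cnp-/-;5xFAD library (38.6 CPM). Both genotypes have positive weight in the interaction, so that a positive value was built into its being tested. Over all genes the interaction called 0.0255% in endothelial cells, namely Pde1a, Schip1 and Dlgap2, named after their values were seen, and 0% in the other 6 classes.

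A wider list of 46 genes of the pathway, the App family, further secretases, adaptors, sorting receptors, transport proteins and amyloid-β degrading enzymes, was tested in the same fits. For the transgenes 1 of 39 tested rose in microglia, where 0.249% of all genes were called, and none passed in the other 6 classes. For Cnp loss 2 of 39 rose in microglia, where 1.06% of all genes were called, and none passed in 5 other classes. In NFOL 1 of 39 fell, a share near the 2.14% of all genes called there and so no result about the list. The median over the list in microglia was 0.00185 for the transgenes and 0.11 for Cnp loss, beside 0.02 and 0.01 over all genes.

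Apbb2, which encodes an adaptor that binds the intracellular tail of the amyloid precursor protein, rose in microglia under both. It was at 250 and 291 CPM in WT, 819 and 783 CPM in Cnp-/-, 1021 and 950 CPM in 5xFAD and 1011 and 1033 CPM in Cnp-/-;5xFAD. Both WT libraries were lowest by far and the Cnp-/-;5xFAD libraries overlapped those of 5xFAD. The effect was 1.10 for the transgenes (adjusted p = 0.00185) and 0.85 for Cnp loss (adjusted p = 0.00934), with an interaction of -1.55 (-1.99 to -1.12) that missed the threshold (adjusted p = 0.0655).

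Sorcs1, a sorting receptor of the VPS10 family, rose in microglia with Cnp loss, by 0.86 (adjusted p = 0.0425). It was at 97.7 and 81.5 CPM in WT, 271 and 215 CPM in Cnp-/-, 162 and 144 CPM in 5xFAD and 179 and 181 CPM in Cnp-/-;5xFAD. Every library without Cnp was above every library with it.

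Markers of mature oligodendrocytes also differed between genotypes in the microglial profiles. The sum of Mbp and Mog, both detected in every profile, was at 589 and 285 CPM in WT, 2194 and 1098 CPM in Cnp-/-, 886 and 841 CPM in 5xFAD and 990 and 1410 CPM in Cnp-/-;5xFAD. As for Apbb2, both WT libraries were lowest, and as for Sorcs1, every library without Cnp was above every library with it. Outside WT the marker sum did not follow Apbb2. Both 5xFAD libraries were above both Cnp-/- libraries for Apbb2 and below them for the marker sum. The part of these markers in the differences of Apbb2 and Sorcs1 was not tested. Microglia were summed as 1 class, and the study places microglia of these genotypes in different subclusters, so that a shift between subclusters and a change within nuclei cannot be told apart for either gene.

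Itm2c, a member of the BRI family of amyloid precursor-binding proteins, fell in NFOL with Cnp loss, by 2.28 on the log2 scale (adjusted p = 0.0249), and is named after its value was seen. It was at 38.5 and 26.2 CPM in WT, 3.38 and 0 CPM in Cnp-/-, 61.2 and 57.2 CPM in 5xFAD and 45.8 and 26.7 CPM in Cnp-/-;5xFAD, so that only the 2 Cnp-/- libraries were low.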

How the data were processed

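Single-nucleus 10x Genomics 3' libraries of 8 samples, 2 per genotype at 6 months, were analysed. The authors aligned reads to mm10 with Cell Ranger 6.1.2, removed ambient transcripts with CellBender, filtered nuclei on detected genes and UMIs, removed clusters of undefined identity and clustered with Seurat, and deposited raw UMI counts per nucleus with a library and a class for each nucleus. Intron counting and doublet treatment are not given in the sources used here, and no nucleus was removed here. Replicates of the single-cell data are described in general as pools of 2 animals, but pooling is not mentioned for the libraries used here. P-values therefore measure the spread between libraries. That spread may hold differences between animals and technical differences, which cannot be separated here.

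Counts were summed per library and class (classes with at least 20 nuclei in every library, median 6811 UMIs per nucleus over all nuclei) and fitted over all genes in edgeR 4.0.16 (limma 3.58.1, R 4.3.3) with filterByExpr, TMM factors, 1 mean per genotype and robust quasi-likelihood, two-sided, with Benjamini-Hochberg adjustment over the genes of a class. CPM are UMIs scaled to a profile total of 1000000. Intervals of fold changes are at 95%. The fit was tested on simulated data. Exact permutation tests used log2(CPM + 1). A zero limit is the CPM of 3 UMIs in the class and covers counting error only. Positions and transcripts came from GENCODE vM21. Alternatives were DESeq2 1.42.0, its size factors, no filter, nuclei of at least 1000 UMIs, counts scaled to 10000 UMIs per nucleus, simple contrasts, a replicate block, leaving out each library and gates of 1 UMI.

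All 9 members are named in every class. Of the wider list, genes past the threshold in neurons, MOL, astrocytes or microglia were named, at most 6 per contrast and class, and for App and Thy1 the 5 most similar genes with at least 10 CPM on average in a class. The members and lists were chosen with earlier results of these data known. The markers of mature oligodendrocytes are given as 2 of the genes listed for them, and 1 gene called in Fezf2 nuclei is not reported here.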

Additional observations from a re-analysis of the deposited data

Results flagged for a closer look

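A possible difference in the 5xFAD effect on Thy1 between kinds of neuronal nuclei passed before adjustment only. The effect was 2.18 higher on the log2 scale in Fezf2 nuclei than in Cux2 nuclei, with the within-library ratio higher in all 4 transgenic libraries than in the other 4 (exact two-sided permutation test, p = 0.0286, the smallest that 70 relabellings can give). By gate it was 1.31 in Fezf2 nuclei and -0.87 in Cux2 nuclei. In Cux2 nuclei Thy1 was at 12.9 and 8.28 CPM in Cnp-/-;5xFAD, while 5xFAD (46.3 and 31.5 CPM) lay on both sides of WT (36.5 and 36.8 CPM). Adjusted over Thy1 and App the p was 0.0571, which misses the threshold. Thy1 could not have passed unless App had also reached the smallest p, so that the miss decides nothing. The comparison was chosen after the values of the gates had been seen, and the share of all genes whose ratio separates in this way was not computed. The differences between Foxp2 and Cux2 nuclei (adjusted p = 0.114) and between Slc17a7 and Gad nuclei (p = 0.286) did not pass by the exact permutation test. No genotype had the 4 or more libraries needed to look for a single library far from the rest.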

How the results depend on the processing

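The fits rest on 2 libraries per genotype and, in NFOL, Fezf2 and Foxp2 nuclei, on few nuclei. Members were called 0, 1 and 0 times for the transgenes, Cnp loss and their interaction over the 7 classes. For Cnp loss this became 2 with no filter on low counts and 0 with the replicate block or in either simple contrast, and leaving out each library gave 0 to 1 for the transgenes and for Cnp loss and 0 for the interaction. Genes called over the 7 classes, 27, 338 and 3, became 836, 1994 and 794 with no filter, 12, 193 and 1 with the replicate block and 559, 949 and 133 in DESeq2, and ranged over 14 to 248, 48 to 589 and 0 to 114 on leaving out each library.

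App in NFOL under Cnp loss stayed at 0.79 with the replicate block (adjusted p = 0.0843) and was 0.78 in DESeq2 (adjusted p = 0.0517) and 0.55 to 1.05 without each library. The mean transgene effect on Thy1 in Fezf2 nuclei stayed called in edgeR under the other size factors, filter and block and in DESeq2, but not in the simple contrast Cnp-/-;5xFAD minus Cnp-/- (1.06, adjusted p = 0.254). It was 1.20 to 1.37 without each library (adjusted p 7.16e-04 to 0.0212), 1.27 with the replicate block (adjusted p = 0.00129) and 1.29 in DESeq2 (adjusted p = 0.00143). With no filter the transgene effect on Thy1 passed in Cux2 nuclei (-0.95, adjusted p = 5.63e-14) and Foxp2 nuclei (1.04, adjusted p = 1.21e-07), as did Cnp loss (-0.90, adjusted p = 1.47e-12) and the interaction (-1.90, adjusted p = 3.28e-14) in Cux2 nuclei. The share of all genes called in these gates without the filter is not given here. Over the 7 classes that setting raised calls for the transgenes from 27 to 836. Without each library the transgene effect on Thy1 was -1.20 to -0.77 in Cux2 nuclei, 0.83 to 1.47 in Foxp2 nuclei and 0.04 to 0.48 in all neuronal nuclei. The Fezf2 to Cux2 difference of 2.18 in Thy1 could not go below an exact permutation p of 0.0556 when relabelled within replicate numbers, as a replicate block, and was 1.97 to 2.40 without each library. The Foxp2 to Cux2 difference in Thy1 was 1.84 (exact permutation p = 0.0286) at 1 UMI and 1.67 to 2.59 without each library. The Slc17a7 to Gad difference in Thy1 was 0.58 to 1.64 without each library. Without each library the Slc17a7 to Gad difference was -0.19 to -0.10 for App, and the Foxp2 to Cux2 difference for App was -0.21 to -0.11, each at an exact permutation p of 0.0286 at the lowest.

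The replicate numbers did not pair the libraries: same-numbered libraries correlated at -0.203 to 0.189 in their deviations from the genotype means in neurons. Of 2435 alternative values of members, 204 changed sign, all uncalled in both fits, and no called value changed sign. The class with the highest mean was the same under both alternatives for all members but Aph1b, where OPC replaced pericytes among nuclei of at least 1000 UMIs. The causes of these shifts were not tested.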

Other observations

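The gates left part of the neuronal class aside: 7825 neuronal nuclei had 1 UMI of a single gating gene, 7198 had UMIs of several and 5026 had none. In Vip nuclei, GABAergic nuclei with at least 2 UMIs of the interneuron gene Vip, Thy1 went the opposite way to Fezf2 nuclei, at 34.1, 46.5, 41.8 and 10.8 CPM in the WT and Cnp-/- libraries and at 23.6, 0, 0 and 10.0 CPM in the 5xFAD and Cnp-/-;5xFAD libraries. These values came from 18 or fewer Thy1 UMIs per library, and the exact two-sided permutation test gave p = 0.0571 (adjusted p = 0.286 over 10 tests).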
